A study of Mus musculus with 6 samples.

Results

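The Bcl2 family decides whether a stressed cell keeps its mitochondria intact or releases cytochrome c and dies by apoptosis. Anti-apoptotic members (Bcl2, Bcl2l1, which encodes Bcl-xL, and Mcl1) hold the effectors Bax and Bak1 in check, and the effectors form pores in the outer mitochondrial membrane once they are free. The BH3-only members, among them Bad, Bid, Bcl2l11 (Bim), Bbc3 (Puma) and Pmaip1 (Noxa), sense stress and either neutralise the anti-apoptotic proteins or activate the effectors directly. In the prostate, luminal epithelial cells die by apoptosis when androgen is withdrawn, and BCL2 is known in the human gland as a protein of basal cells. These 10 genes were read from the expression tables by their gene symbols, 10 of the 55076 rows, and their levels were compared between OEx and Ctrl mice. Of the 10, 9 had a mean of at least 1 FPKM (fragments per kilobase of exon, scaled to library size) over the 6 mice and were tested together with all 12833 rows at or above that level.

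The samples were the whole anterior prostate (AP) of male mice aged 20 weeks, 3 OEx and 3 Ctrl, with total RNA sequenced as 1 library per mouse. OEx mice carried Pbsn-Cre and 1 Rosa26 N1ICD allele, so that Cre, driven by the probasin promoter in prostate epithelium, switched on the intracellular domain of Notch1 (N1ICD) in those cells. The sample labels give the Ctrl genotype as wild type, whereas the methods of the study describe Ctrl mice with the same Rosa26 N1ICD allele and no Cre. The comparison asked which transcripts of the AP differed when Notch1 signaling was switched on in the epithelium. A gene was called at a limma FDR (Benjamini-Hochberg over all tested rows) under 0.05 with a log2 fold change of FPKM + 1 above 1 or below -1. Fold changes on this scale understate those of low genes.

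Between 14762352 and 18651203 reads per mouse could be recovered from the FPKM values, and 3 reads corresponded to 0.161 to 0.203 CPM. Notch1, with the transgene not separable, was at 41.9, 47.6 and 78.9 FPKM in OEx and 5.18, 5.55 and 3.34 FPKM in Ctrl mice. Replicates 1 and 2 of each group were alike, at a Pearson r of 0.991 over genes in either group, against 0.9502 to 0.965 with replicate 3. They still differed by more than counting noise (chi-square per degree of freedom 3.47 in OEx and 2.84 in Ctrl), and nothing in the labels says how the mice were related, so p-values measure the spread between these libraries. Ctrl replicate 3 held 16128 FPKM summed over 8 seminal vesicle genes, which summed to at most 4.36 FPKM in any other mouse. The 4 general epithelial markers, which mark epithelium and not the AP in particular, summed to 1004 to 1322 FPKM in OEx and 1498 to 1740 FPKM in Ctrl. They did not move together: Krt18 was called lower and Krt8 was lower without a call. Epcam was at 313, 310 and 491 FPKM in OEx and 297, 295 and 214 FPKM in Ctrl mice. Cdh1 was at 127, 127 and 131 FPKM in OEx and 92.6, 93.6 and 64.2 FPKM in Ctrl mice. Both were higher in every OEx mouse than in any Ctrl mouse, and neither was called. Cdh1 passed the FDR (0.0101 by limma) and Epcam did not (0.117). All 4 basal epithelial markers (Krt5, Krt14, Krt15 and Trp63) were called lower, with sums of 6.79 to 15.9 FPKM in OEx and 212 to 249 FPKM in Ctrl. All 5 smooth muscle markers were called lower too, with sums of 351 to 418 against 1043 to 2245 FPKM (4 of 5 with limma-voom). With other scalings, described further on, the basal markers were all called lower, while 1 of 5 smooth muscle markers was with library totals or Rpl19 and 3 of 5 were with the other scalings, with 3 of 5 below 0 under Rpl19. Krt18 was not called lower with library totals, without the 20 most abundant genes or with Rpl19. With each of these, 2 of the 4 epithelial markers were called higher. Of all 12833 tested rows, 3512 to 5812 were called higher and 367 to 702 lower with these scalings, against 1653 and 2021 as deposited. The part of these cell types in the values given here was not tested, and fewer cells of a type cannot be told apart from less RNA per cell in whole tissue.

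With the deposited scaling, Bcl2 rose in OEx mice, Bad and Bid fell, and the effectors Bax and Bak1 did not pass the test. With other scalings the call of Bcl2 was kept under all 4, that of Bid under 3 and that of Bad under 1. Of the 9 tested members, 3 were called (1 higher and 2 lower), where 28.6% of all tested rows were called (12.9% higher and 15.7% lower). At the FDR alone 5 of 9 passed, against 67.2% of all rows (30.7% above 0 and 36.5% below), and the groups did not overlap for 6 of 9, against 72.4% of all rows. The median log2 fold change of the 9 was -0.18, and that of all tested rows was -0.078. These shares are close to or below those of all rows and are no result about the family as a whole.

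**Figure D1:**
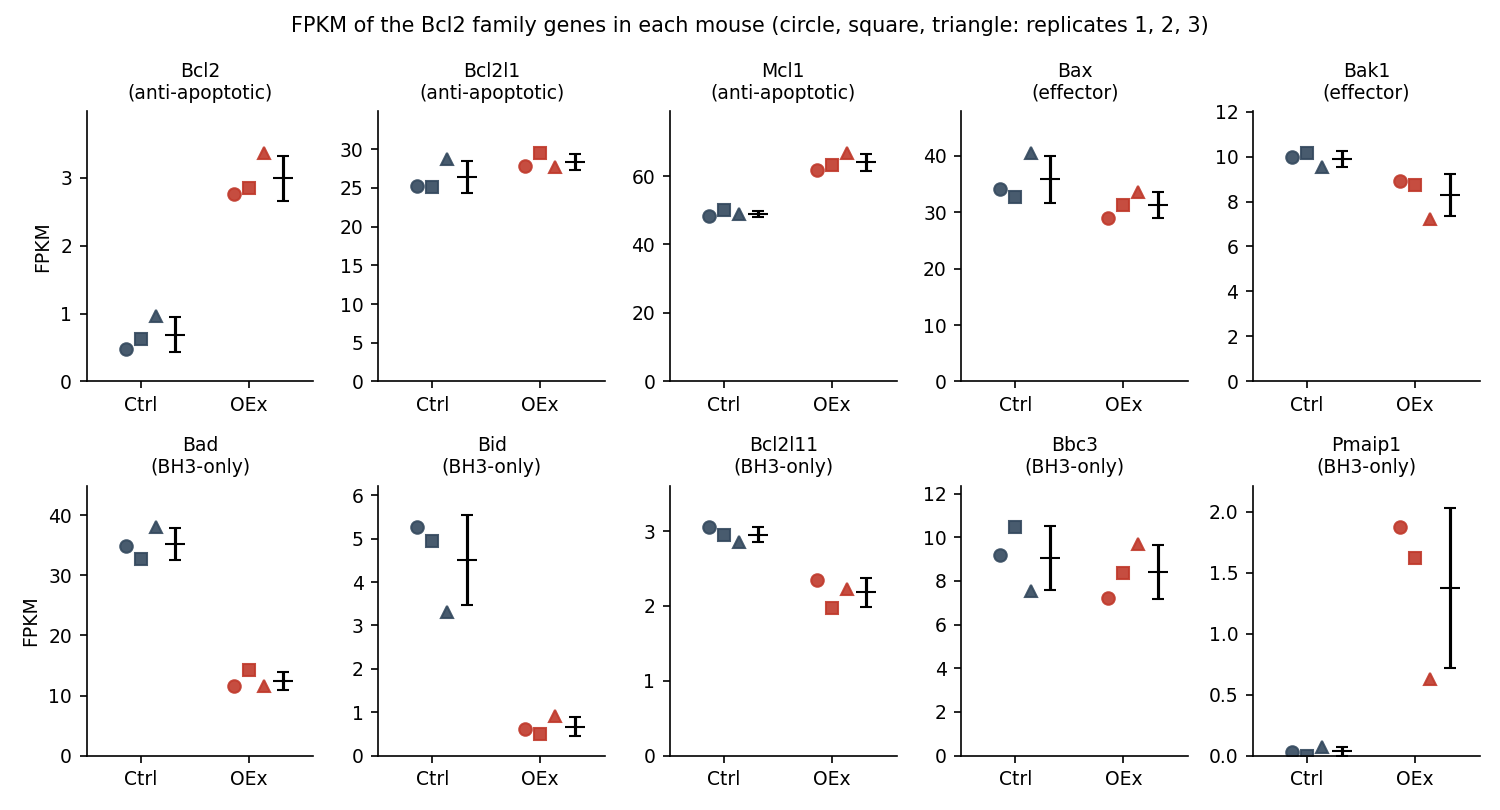
Level of each of the 10 genes in each mouse, in FPKM on a linear axis from 0, with Ctrl in blue and OEx in red and bars for the mean ± SD of 3 mice. Bcl2 lies higher and Bad and Bid lie lower in every OEx mouse than in any Ctrl mouse, while Bcl2l1, Bax and Bbc3 overlap.

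Bcl2 (chr1:106538178-106714274, minus strand, GRCm38) is the founding anti-apoptotic member and guards the outer mitochondrial membrane. It was at 2.76, 2.85 and 3.37 FPKM in OEx and 0.471, 0.624 and 0.970 FPKM in Ctrl mice. The lowest OEx mouse was thus well above the highest Ctrl mouse, Ctrl replicate 3. These levels rested on 505, 596 and 557 reads in OEx and 54, 74 and 135 reads in Ctrl mice. The log2 fold change was 1.25 (SE 0.148, FDR 4.13e-04 by limma), and the ratio of the group means was 4.35. With a pseudocount of 0.1 in place of 1 FPKM the log2 fold change was 2.02, and with limma-voom on the recovered reads it was 2.24. Of the exon length of Bcl2, 6.1% overlaps an antisense transcript, D630008O14Rik, and whether reads were counted by strand is not given in the sources used here.

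Mcl1 (chr3:95658788-95663176, plus strand), a short-lived anti-apoptotic protein, was the most abundant member per length in both groups. It was at 61.9, 63.3 and 66.8 FPKM in OEx and 48.2, 49.99 and 48.8 FPKM in Ctrl mice. The groups did not overlap and the mice of each group lay close together. The log2 fold change was 0.38 (SE 0.0737, FDR 0.00378 by limma), which passed the FDR and fell short of the fold criterion. The FDR was 0.0663 when replicates 1 and 2 of each group were averaged to 1 sample.

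Bcl2l1 (chr2:152780668-152831728, minus strand) encodes Bcl-xL, the main anti-apoptotic partner of Bad. It was at 27.8, 29.6 and 27.7 FPKM in OEx and 25.3, 25.2 and 28.8 FPKM in Ctrl mice. The groups overlapped through Ctrl replicate 3. The log2 fold change of 0.10 had a 95% interval from -0.11 to 0.31 (FDR 0.327 by limma), which lies well inside the fold criterion in both directions under the deposited scaling.

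The effectors were both measured well above the filter. Bax (chr7:45461697-45466898, minus strand) was at 29.0, 31.3 and 33.6 FPKM in OEx and 34.1, 32.7 and 40.5 FPKM in Ctrl mice. The highest OEx mouse lay above the lowest Ctrl mouse, and the log2 fold change of -0.18 had a 95% interval from -0.45 to 0.077 (FDR 0.173 by limma). Bak1 (chr17:27019810-27029009, minus strand) was at 8.93, 8.76 and 7.23 FPKM in OEx and 9.996, 10.2 and 9.51 FPKM in Ctrl mice. Every OEx mouse lay below every Ctrl mouse for Bak1, but the log2 fold change of -0.23 did not pass (95% interval -0.47 to 0.0095, FDR 0.0800 by limma). Bax shares 192 bases of exon with Gm45808 on the same strand, and Bak1 shares exon with Ggnbp1 on the other strand.

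Among the BH3-only genes, Bad had the highest level per length. Bad (chr19:6941861-6951899, plus strand) binds Bcl2 and Bcl-xL and is kept inactive by phosphorylation, for instance by Akt kinases. It was at 11.6, 14.2 and 11.5 FPKM in OEx and 34.8, 32.8 and 38.04 FPKM in Ctrl mice. The groups were far apart, with a mean in Ctrl mice 2.83 times that of OEx mice. The log2 fold change was -1.43 (SE 0.109, FDR 8.08e-05 by limma). With library totals it was -0.57, without the 20 most abundant genes -0.80 and with Rpl19 -0.29, none of them called. Bad shares 524 bases, 20.5% of its GENCODE exon length of 2558 bases, with Gpr137 on the other strand. The deposited values fitted a length of 2007 bases, so the shared part of the exons that were counted is not known.

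Bid (chr6:120891930-120916853, minus strand) links death receptors to mitochondria, since caspase-8 cuts it into an active fragment. It was at 0.607, 0.493 and 0.905 FPKM in OEx and 5.27, 4.94 and 3.32 FPKM in Ctrl mice. In each group replicate 3 lay nearest to the other group, and the groups still did not overlap. The reads behind these levels were 43, 40 and 58 in OEx and 234, 227 and 179 in Ctrl mice. The log2 fold change was -1.71 (SE 0.180, FDR 2.55e-04 by limma), and the mean of Ctrl mice was 6.75 times that of OEx mice. The log2 fold change was -2.59 with the pseudocount of 0.1 FPKM and -2.67 with limma-voom. Bid shares 628 bases, 17.7% of its exon length, with Bcl2l13 on the other strand, and Bcl2l13 itself was at 3.28, 3.16 and 4.05 FPKM in OEx and 4.57, 5.90 and 3.48 FPKM in Ctrl mice.

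Bcl2l11 (chr2:128126038-128162547, plus strand) encodes Bim, a strong activator of Bax and Bak1. It was at 2.35, 1.97 and 2.23 FPKM in OEx and 3.06, 2.94 and 2.86 FPKM in Ctrl mice. All OEx mice lay below all Ctrl mice, and the log2 fold change was -0.31 (SE 0.0974, FDR 0.0261 by limma), under the fold criterion. Its FDR stayed under 0.05 only when OEx replicate 3 (0.0381) or Ctrl replicate 3 (0.0310) was the mouse left out, and reached 0.103 without OEx replicate 2.

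The remaining BH3-only genes are both targets of p53. Bbc3 (chr7:16308393-16318205, plus strand), which encodes Puma, was at 7.20, 8.36 and 9.68 FPKM in OEx and 9.18, 10.5 and 7.53 FPKM in Ctrl mice. The groups were interleaved, and the log2 fold change of -0.094 had a 95% interval from -0.45 to 0.26 (FDR 0.596 by limma). Pmaip1, which encodes Noxa, an antagonist of Mcl1, was at 1.88, 1.62 and 0.628 FPKM in OEx and 0.0302, 0 and 0.0746 FPKM in Ctrl mice. Its mean of 0.705 FPKM kept it out of the test. The reads were 99, 98 and 30 in OEx and 1, 0 and 3 in Ctrl mice, so nearly all Pmaip1 reads came from OEx libraries, with OEx replicate 3 the lowest of them. Pooled and scaled as deposited, 227 reads against 4 gave a ratio of 37.9, with an exact 95% interval from 14.6 to 140.3 that covers counting error only. The 4 macrophage markers also put OEx replicate 3 below OEx replicates 1 and 2, with sums of 30.7, 31.5 and 7.57 FPKM in OEx and 8.35, 8.19 and 15.4 FPKM in Ctrl mice, and none of the 4 was at 0 in all mice. Of these, 3 were tested and 0 were called by limma or limma-voom with the deposited scaling, with 0 at an unadjusted p under 0.05. With library totals, and without the 20 most abundant genes, 2 of 3 were called higher, and with Rpl19 3 of 3 were. Of all 12833 tested rows, 4458, 3512 and 5812 were called higher under these 3 scalings, against 1653 as deposited. The 4 T cell markers summed to 4.85, 3.61 and 1.10 FPKM in OEx and 0.982, 1.35 and 2.27 FPKM in Ctrl mice, below the filter. The part of these cells in the Pmaip1 level was not tested.

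The 3 members that met both criteria above the main filter are shown with bases before their RefSeq start sites (GRCm38.p6), read 5′ to 3′ on the strand of the gene. N1ICD acts with the DNA-binding protein RBPJ, whose core motif is TGGGAA, which reads TTCCCA on the opposite strand. The GC box bound by Sp1-type factors is GGGCGG, which reads CCGCCC on the opposite strand. Capitals mark these letters. The regions are chr1:106714291-106714540 (minus strand) for Bcl2, chr19:6941611-6941860 (plus strand) for Bad and chr6:120916854-120917074 (minus strand) for Bid, the last one ending just before the first exon base of the GENCODE gene and so short of the RefSeq start site.
Bcl2: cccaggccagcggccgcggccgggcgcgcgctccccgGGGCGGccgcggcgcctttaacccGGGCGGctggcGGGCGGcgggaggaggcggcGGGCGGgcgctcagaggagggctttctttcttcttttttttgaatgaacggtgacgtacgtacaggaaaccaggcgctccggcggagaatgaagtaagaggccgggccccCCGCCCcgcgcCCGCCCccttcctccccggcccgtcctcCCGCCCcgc
Bad: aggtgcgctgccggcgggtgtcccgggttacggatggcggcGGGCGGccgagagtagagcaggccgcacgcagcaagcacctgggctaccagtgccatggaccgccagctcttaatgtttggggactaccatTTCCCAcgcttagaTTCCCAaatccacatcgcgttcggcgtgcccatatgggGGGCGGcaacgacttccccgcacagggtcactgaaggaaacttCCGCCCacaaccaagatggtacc
Bid: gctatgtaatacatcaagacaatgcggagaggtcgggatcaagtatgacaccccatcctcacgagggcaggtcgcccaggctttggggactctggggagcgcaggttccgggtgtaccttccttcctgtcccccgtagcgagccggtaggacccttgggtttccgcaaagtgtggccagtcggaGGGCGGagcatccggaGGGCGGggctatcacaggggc
The Bcl2 stretch held 7 GC boxes and the Bid stretch held 2, and neither held the RBPJ core. The Bad stretch held 3 GC boxes and the RBPJ core at 2 places, whose first bases are at -118 and -104 from the start site. Over the 300-base windows of RefSeq (250 before and 50 after a start site), the RBPJ core was in 25.6% of 32851 windows and in 3 of the 15 windows of the members, those of Bad and Bax. The GC box was in 35.7% of all windows and in 10 of the 15. No letters of either motif overlap in the stretches shown, and a match of 6 letters is a description, not a binding site.

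Relative to each other, the members changed places. Per length, the order in OEx mice was Mcl1, Bax, Bcl2l1, Bad, Bbc3, Bak1, Bcl2, Bcl2l11, Pmaip1 and Bid. The ranges of Bax and Bcl2l1, of Bbc3 and Bak1, and of Pmaip1 and Bid overlapped. In Ctrl mice it was Mcl1, Bax, Bad, Bcl2l1, Bak1, Bbc3, Bid, Bcl2l11, Bcl2 and Pmaip1. There the ranges of Bax and Bad and those of Bak1 and Bbc3 overlapped. Bcl2 thus lay above Bcl2l11 and Bid in OEx mice and below both in Ctrl mice.

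Of the FPKM summed over the 10 genes in a mouse, the anti-apoptotic genes took 59.0% to 60.02% in OEx and 43.4% to 44.6% in Ctrl mice. BH3-only genes took 15.3% to 16.4% and 28.7% to 30.7%. Most of that shift was carried by the abundant genes. Bad alone took 7.05% to 8.72% in OEx and 19.3% to 21.1% in Ctrl mice. Mcl1 took 39.0% to 40.8% and 27.03% to 29.4%, while Bcl2 took at most 2.06% in any mouse. The effectors took 24.6% to 24.9% in OEx and 25.3% to 27.7% in Ctrl mice, the smallest move of the 3 roles. The shares cover the 10 members only. Bcl2l2, an anti-apoptotic gene that was lower in OEx mice as deposited, is not among them.

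**Figure D2:**
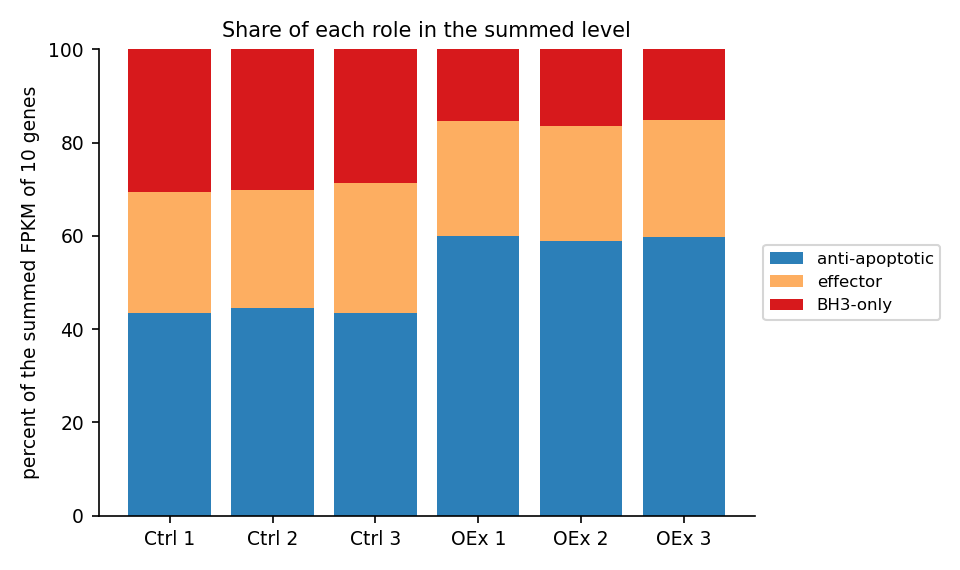
Share of the summed FPKM of the 10 genes taken by anti-apoptotic, effector and BH3-only genes, in percent, 1 bar per mouse. The anti-apoptotic share is 59.0% to 60.02% in OEx and 43.4% to 44.6% in Ctrl mice, with the BH3-only share moving the other way.

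Ratios of 2 genes were taken within each mouse on FPKM + 1, where the added 1 FPKM weighs most on Bcl2 at its low level. The log2 ratio of Bcl2 to Bad (FPKM + 1) was -1.74, -1.98 and -1.52 in OEx and -4.61, -4.38 and -4.31 in Ctrl mice, a difference of 2.68. That of Bcl2 to Bax was -3.00, -3.07 and -2.98 in OEx and -4.58, -4.38 and -4.40 in Ctrl mice, a difference of 1.43. Both ratios rested on a Bcl2 level below that of its partner in every mouse. The log2 ratio of Mcl1 to Bax was 1.07, 0.99 and 0.97 in OEx and 0.49, 0.60 and 0.26 in Ctrl mice, a difference of 0.56. That of Bcl2l1 to Bax was -0.059, -0.080 and -0.27 in OEx and -0.42, -0.37 and -0.48 in Ctrl mice, a difference of 0.29. For each of the 4 ratios every OEx mouse lay above every Ctrl mouse, but the exact permutation test of 3 against 3 gave a two-sided p of 0.1, the smallest it allows (0.1 after adjustment over the 4), so no ratio could pass 0.05. Without the added 1 FPKM a ratio no longer depends on the scaling between libraries, and the differences were then 3.68 for Bcl2 to Bad, 2.37 for Bcl2 to Bax, 0.58 for Mcl1 to Bax and 0.30 for Bcl2l1 to Bax, again with every OEx mouse above every Ctrl mouse. With 0.1 FPKM added they were 3.51, 2.21, 0.57 and 0.30.

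**Figure D3:**
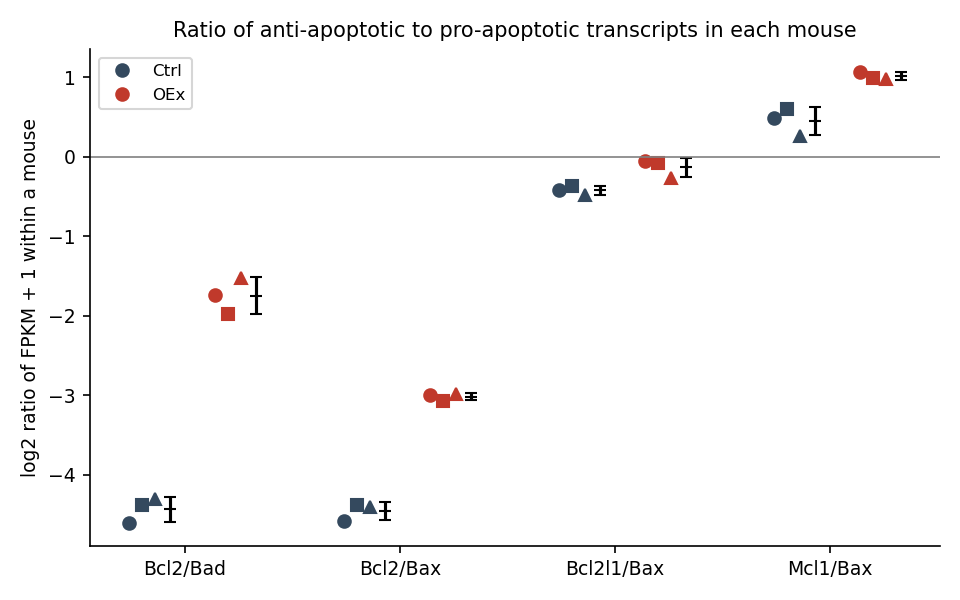
Log2 ratio of an anti-apoptotic to a pro-apoptotic gene (FPKM + 1) within each mouse, Ctrl in blue and OEx in red, with bars for the mean ± SD of 3 mice. All 3 OEx mice lie above all 3 Ctrl mice for each ratio, by 2.68 on average for Bcl2 to Bad and by 0.29 for Bcl2l1 to Bax.

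The deposited values already carried a scaling between mice, and single levels moved with it. For OEx libraries they imply a library size of 1.22 to 1.35 times the number of reads recovered, and for Ctrl libraries of 0.726 to 0.815 times. The top gene held 14.3% to 22.0% of Ctrl reads and at most 1.12% of OEx reads. Library totals are here the FPKM summed over all rows of a mouse, not its reads. They were 253965 to 272224 in OEx and 467138 to 529972 in Ctrl mice, so a scaling to equal totals raised OEx values relative to Ctrl values. The 20 most abundant genes were those highest in FPKM in each mouse. The median log2 fold change of all tested rows was 0.65 with library totals, 0.46 with totals that left out the 20 most abundant genes, 0.15 with the upper quartile and 0.89 with Rpl19, the reference gene of the qPCR in the study, whose own log2 fold change was -1.20 as deposited. Bcl2 was called higher under all of these, at 1.41 to 1.94. Bid was below 0 under all, at -1.54 to -0.97, and lost its call with Rpl19. Bad was below 0 under all but was called only with the upper quartile (-1.17), and with Rpl19 its FDR was 0.106 by limma. Mcl1 passed both criteria with library totals (1.27), without the 20 genes (1.03) and with Rpl19 (1.56), and Bcl2l1 did with Rpl19 (1.26). Bax, Bak1 and Bbc3 changed sign under each of these scalings, and Bcl2l11 under all but the upper quartile. With library totals, without the 20 genes and with Rpl19, Bax, Bak1 and Bbc3 passed the FDR above 0 (4.28e-04 to 0.0276 by limma). Bcl2l11 did so with library totals (0.0296) and Rpl19 (0.00618). None of them met the fold criterion. Relative to the median of all rows, by contrast, Bcl2 lay between 1.04 and 1.33, Mcl1 between 0.46 and 0.67, Bad between -1.36 and -1.18 and Bid between -1.86 and -1.63 under the 5 scalings, the deposited one included. Bax lay between -0.11 and 0.092.

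**Figure D4:**
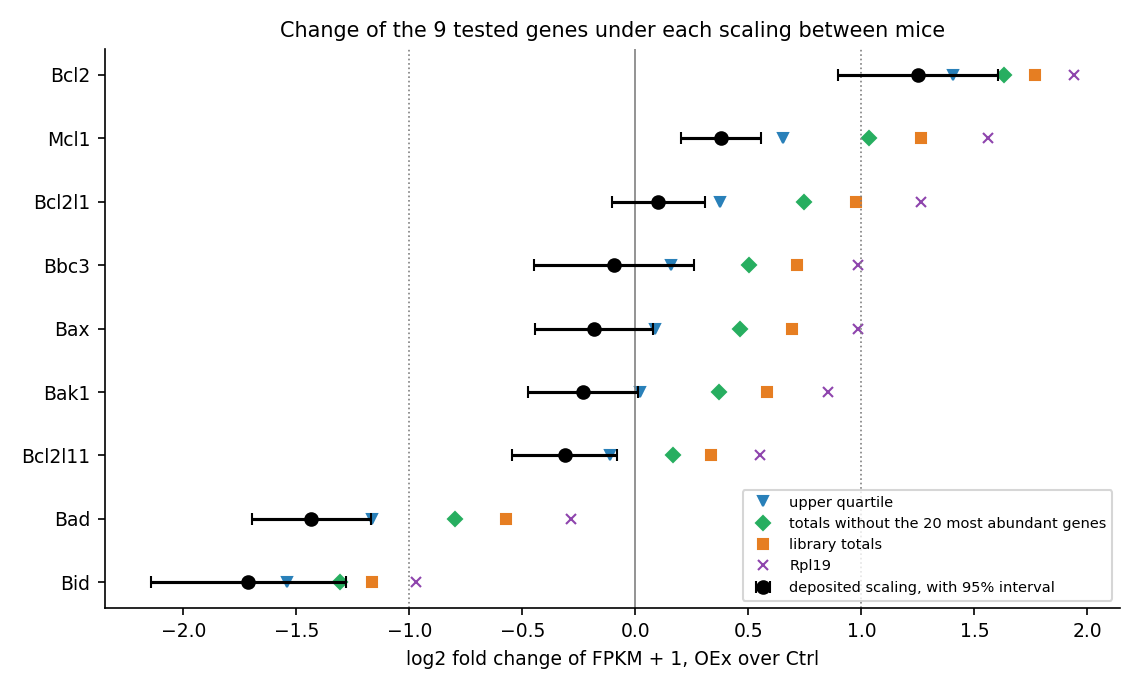
Log2 fold change of FPKM + 1 (OEx over Ctrl) of the 9 tested genes under the deposited scaling (black, with the 95% interval of the limma fit) and 4 other scalings between mice, with dotted lines at -1 and 1. Bcl2 stays to the right of 1 and Bad and Bid stay to the left of 0, while the black points of Bax, Bak1, Bbc3 and Bcl2l11 lie left of 0 and most of their other points lie right of it.

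The rest of the apoptosis machinery was read from 7 lists with 86 genes, of which 70 were tested, 12 were called higher and 9 lower, shares to be read against the 12.9% and 15.7% of all rows. Among 15 further Bcl2 family genes, 9 were tested and 2 were called lower. Bcl2l14, a family member of uncertain role, was at 6.58, 5.89 and 10.2 FPKM in OEx and 26.7, 27.7 and 24.1 FPKM in Ctrl mice (a log2 change of -1.70, FDR 3.13e-04 by limma). Bnip3, a mitochondrial protein of hypoxia and mitophagy, was at 2.39, 2.16 and 2.42 FPKM against 11.7, 11.1 and 9.97 FPKM (-1.84, FDR 2.94e-05 by limma). The highest value of the list was that of Bnip3l, at 0.32, which was not called. Bcl2l2, an anti-apoptotic gene, was at 13.1, 13.7 and 16.5 FPKM in OEx and 28.5, 29.5 and 24.7 FPKM in Ctrl mice. Its log2 fold change of -0.89 passed the FDR (6.66e-04 by limma) and fell short of the fold criterion. Bok, a relative of the effectors, was at 29.8, 30.8 and 12.2 FPKM in OEx and 15.7, 15.4 and 26.6 FPKM in Ctrl mice. Fibroblast markers split the OEx mice in the same way, with summed levels of 233, 238 and 23.6 FPKM in OEx and 52.7, 51.2 and 91.3 FPKM in Ctrl mice, and their part in the Bok level was not tested. By limma or limma-voom 0 of the 5 fibroblast markers were called with the deposited scaling, with 0 at an unadjusted p under 0.05, and 3 were called higher with Rpl19. With Rpl19, 5812 of all 12833 tested rows were called higher too. Hrk was listed at 0 in all mice.

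Downstream of the mitochondria, 12 of 13 apoptosome and caspase genes were tested, with 1 higher and 3 lower. Cycs, which encodes cytochrome c, was at 7.61, 6.95 and 7.88 FPKM in OEx and 16.7, 17.6 and 21.2 FPKM in Ctrl mice (a log2 change of -1.20, FDR 1.56e-04 by limma). Endog, a mitochondrial nuclease, fell by 1.58 and the executioner Casp6 fell by 1.02 on the log2 scale. Casp2 rose, with a log2 fold change of 1.08 (FDR 2.05e-04 by limma). Among 8 inhibitors of apoptosis, which block caspases or mark proteins for degradation, 4 were tested and 2 were called higher. These were Birc2 (log2 fold change 1.13, FDR 1.29e-04 by limma) and Xiap (1.06, FDR 1.98e-04 by limma). All 4 had log2 fold changes above 0 and passed the FDR, the lowest being Birc6 at 0.73.

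Upstream, 9 of 12 death receptor genes were tested and 2 were called higher, beside 12.9% of all rows. At the FDR alone 4 were higher and 2 lower, beside 30.7% and 36.5% of all rows. Tnfsf10, which encodes the death ligand TRAIL, was at 7.64, 6.34 and 7.58 FPKM in OEx and 0.501, 0.601 and 0.837 FPKM in Ctrl mice (a log2 change of 2.32, FDR 3.23e-05 by limma). Casp8, the initiator caspase that cuts Bid, had a log2 fold change of 1.01 (FDR 2.35e-04 by limma). The lowest value of this list was that of the adaptor Tradd, at -0.77. It passed the FDR (0.00363 by limma) and fell short of the fold criterion. All 14 genes of the list of p53 and its targets were tested and 4 were called higher. At the FDR alone 11 were higher and 3 lower. Mdm4, an inhibitor of p53, was at 17.1, 16.6 and 18.3 FPKM in OEx and 3.51, 3.55 and 3.65 FPKM in Ctrl mice (2.01, FDR 1.85e-05 by limma). The cell cycle inhibitor Cdkn1a (1.29), Ccng1 (1.29) and Trp53inp1 (1.19) were the other called genes. Sesn2 was the lowest at -0.997, just short of the fold criterion on the FPKM + 1 scale. Trp53 itself stood at 0.57, passed the FDR (0.00188 by limma) and fell short of the fold criterion.

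**Figure D5:**
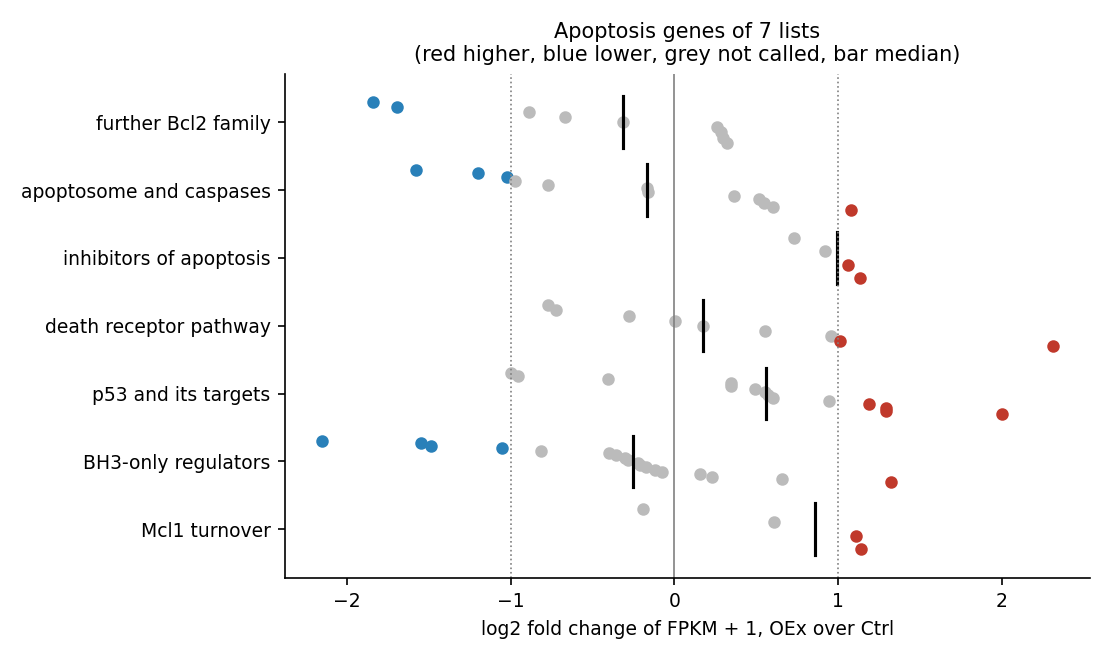
Log2 fold change of FPKM + 1 (OEx over Ctrl) of each tested gene of 7 apoptosis lists, red for called higher, blue for called lower, grey for not called, with a black bar at the list median and dotted lines at -1 and 1. The 4 tested inhibitors of apoptosis lie right of 0 and have a median of 0.99, whereas further Bcl2 family genes have a median of -0.31.

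The medians of these lists were -0.31 for further Bcl2 family genes, -0.16 for apoptosome and caspases, 0.99 for inhibitors of apoptosis, 0.18 for the death receptor pathway and 0.56 for p53 and its targets, beside -0.078 for all tested rows. With library totals the first 2 turned to 0.40 and 0.59, beside 0.65 for all rows. Relative to all rows they were -0.23 and -0.087 with the deposited scaling and -0.25 and -0.069 with library totals. Under library totals the calls of Bcl2l14, Cycs, Casp6 and Endog were lost, while Bnip3 stayed lower (-1.10). Calls close to the fold criterion also depended on single mice. Casp6 was lost without OEx replicate 2 (-0.95), Ctrl replicate 1 (-0.96) or Ctrl replicate 2 (-0.96). Casp8 was lost without OEx replicate 1 (0.99), OEx replicate 2 (0.97) or Ctrl replicate 1 (0.95), and Xiap was lost without OEx replicate 3 (0.995). Cdkn1a kept its call without any single mouse and had an FDR of 0.0502 when replicates 1 and 2 were averaged to 1 sample.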

How the data were processed

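Total RNA of the AP was sequenced by the study on an Illumina HiSeq system after TruSeq library preparation. The authors deposited 1 table per mouse with an FPKM value per gene symbol. The submitters' processing notes name CASAVA, HISAT2 2.0.5, StringTie 1.3.3b and featureCounts 1.5.0-p3 without their roles. The genome build and the use of strand are not given in the sources used here.

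Of 55076 rows, 53644 were matched by symbol to 1 gene of GENCODE M21 (GRCm38). Reads were recovered as whole multiples of the smallest step of FPKM times exon length, and 96.9% to 97.5% of values under 1000 reads came out whole within 0.05 reads. For Bad and Pmaip1 the length was found from the values (2007 and 2646 bases). Read intervals and floors cover counting error only, since reads need not be independent molecules.

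OEx and Ctrl were fitted by limma 3.58.1 under R 4.3.3 (eBayes with trend, group as the only term, two-sided) on log2(FPKM + 1), over rows whose mean reached 1 FPKM. The thresholds for calls are those stated in the study, applied here to log2(FPKM + 1), which is stricter on the fold for low genes. Ratios were tested by exact permutation with scipy 1.17.1. The read recovery and the limma fit were tested on simulated counts. For the fit, few genes were changed and the groups shared 1 scaling. The choice of scaling and the likeness of replicates 1 and 2 were thus not covered. The members and all lists were chosen with earlier results of these data known. Named are all members, the called genes and the lowest and highest gene of each of 7 apoptosis lists, Notch1, Rpl19, and the 3 genes nearest in pattern to Bcl2 and to Bad. Bcl2l2, Bcl2l13, Bok, Hrk, Trp53 and the cell type markers were named after their values were seen. Alternatives were other scalings, filters, pseudocounts, limma-voom with TMM factors, the replicate number as a block, each mouse left out and, added after the data were seen, replicates 1 and 2 averaged and both replicates 3 left out. Upstream sequences came from RefSeq (GRCm38.p6), which held windows for 9 of the 10 members.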

Additional observations from a re-analysis of the deposited data

How the results depend on the processing

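With each mouse left out in turn, the number of members called stayed at 3, and the log2 fold changes ran from 1.16 to 1.37 for Bcl2, from -1.52 to -1.38 for Bad and from -1.88 to -1.61 for Bid. That of Bbc3 ran from -0.21 to 0.0058. With replicates 1 and 2 averaged, and with both replicates 3 left out, 3 members were again called, and Bbc3 turned to 0.011 in the former. The number called higher was 1 in the main analysis, 2 with a filter of 0.1 FPKM, without a filter, with library totals and with totals without the 20 most abundant genes, and 3 with Rpl19. The gene added by the filters is Pmaip1, which passes them only through the OEx mice. The number called lower was 2 in the main analysis, 1 with library totals and without the 20 genes, and 0 with Rpl19. Of all 12833 tested rows, 4458, 3512 and 5812 were called higher with library totals, without the 20 genes and with Rpl19, against 1653. Those called lower were 504, 702 and 367, against 2021. At the FDR alone 5 members passed, 2 of them higher. With library totals 35 genes of the other lists were called (33 higher and 2 lower) in place of 21. Of the 21, 14 kept their call with library totals, 15 without the 20 genes, 18 with the upper quartile and 12 with Rpl19. With 1 mouse left out 18 to 20 did. Log2 fold changes that changed sign with library totals, without the 20 genes, with the upper quartile and with Rpl19 were 0.69, 0.46, 0.088 and 0.99 for Bax, 0.58, 0.37, 0.021 and 0.85 for Bak1, and 0.71, 0.50, 0.16 and 0.98 for Bbc3. Bcl2l11 turned to 0.33, 0.17 and 0.55 in all but the upper quartile. Without OEx replicate 1 Bbc3 was at 0.0011, and without Ctrl replicate 2 at 0.0058. The cause was not tested, beyond the shift of all genes that each scaling brings.

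The deviations of same-numbered mice from their group mean correlated at -0.19, -0.19 and -0.31. Replicates 1 and 2 of each group were alike, so these values mainly reflect how replicate 3 differed from them. They cannot decide whether the numbers pair the mice, and the labels tie no number to a litter or a day. With the replicate number as a block, 3 members and 21 genes of the other lists were called as before, and the FDR of Bcl2l11 was 0.0724. The depth limits Bcl2 in Ctrl mice, Bid in OEx mice and above all Pmaip1 in Ctrl mice.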

Other observations

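Genes that act on BH3-only proteins or on Mcl1 were read from a further pair of lists. Of 18 regulators of BH3-only genes, all tested, 1 was called higher and 4 lower, beside 12.9% and 15.7% of all rows. The median log2 fold change was -0.25 beside -0.078 for all rows. Atf4, a transcription factor of the integrated stress response, was at 47.7, 43.2 and 46.1 FPKM in OEx and 207, 208 and 205 FPKM in Ctrl mice (a log2 change of -2.16, FDR 1.69e-05 by limma). Ddit3 (CHOP), a pro-apoptotic factor induced by Atf4 and listed on a second row at 0, was at 7.20, 6.97 and 6.79 FPKM against 20.5, 21.1 and 26.0 FPKM (-1.55, FDR 6.26e-05 by limma). Both groups of mice were tight for Atf4, while for Ddit3 Ctrl replicate 3 lay above the other Ctrl mice. Dynll1, a dynein light chain that binds Bim, fell by 1.49, and Akt1, a kinase that phosphorylates Bad, fell by 1.05 on the log2 scale. Hif1a, the hypoxia factor, rose (1.33, FDR 3.70e-04 by limma). The median of the list was 0.54 with library totals, beside 0.65 for all rows, and Atf4 was still called lower there (-1.26) while Ddit3, Dynll1 and Akt1 were not called. Without Ctrl replicate 2 the log2 fold change of Akt1 was -0.98 and no longer called.

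Of 6 genes of Mcl1 turnover, 4 were tested and 2 were called higher, beside 12.9% of all rows. Huwe1, a ubiquitin ligase that marks Mcl1 for degradation, was at 15.6, 16.3 and 22.0 FPKM in OEx and 8.88, 8.40 and 6.08 FPKM in Ctrl mice (a log2 change of 1.11, FDR 0.00161 by limma). Usp9x, a deubiquitinase that stabilises Mcl1, was at 6.79, 6.72 and 9.93 FPKM against 3.10, 3.67 and 2.19 FPKM (1.14, FDR 0.00217 by limma). Transcripts of proteins with opposite roles in Mcl1 turnover were thus both higher. In both groups replicate 3 was farthest from the other group. Both calls were lost without OEx replicate 3 (0.96 for Huwe1, 0.98 for Usp9x) or Ctrl replicate 3 (0.96 and 0.99). The lowest gene of this list was Ube2k, at -0.19, which was not called.

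Patterns over the 6 mice were compared on the centred log2 scale of FPKM + 1, among the 4537 genes whose mean reached 10 FPKM. Those most like Bcl2 on this scale were Isoc1, Ggnbp2 and Lin7c, with root mean square differences of 0.0681, 0.0783 and 0.0809. The added 1 FPKM shrinks the change of Bcl2, at a mean of 1.84 FPKM, more than that of these genes. Its log2 fold change was 1.25 on this scale and 2.02 with 0.1 FPKM added, so the likeness holds on this scale only. Isoc1 was at 22.0, 20.8 and 25.7 FPKM in OEx and 8.36, 8.29 and 11.7 FPKM in Ctrl mice. Those most like Bad were Itpa, Ndufc1 and Rit1, at 0.0364, 0.0450 and 0.0548. Itpa was at 9.93, 11.3 and 9.68 FPKM in OEx and 28.9, 28.4 and 32.9 FPKM in Ctrl mice. The measure runs over 6 mice in 2 groups, and 72.4% of all tested rows had groups that did not overlap.

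Markers of other cell types gave further values. Of the 4 endothelial markers, 2 were lower at the limma FDR, 0 met the fold criterion and 2 were called with limma-voom, and they summed to 5.83 to 7.02 FPKM in OEx and 11.4 to 16.6 FPKM in Ctrl mice. Their median log2 fold change was -0.58 as deposited, -0.0020 with library totals (2 of 4 below 0) and 0.19 with Rpl19 (1 of 4). Relative to all rows these medians were -0.51, -0.66 and -0.70. Leukocyte markers summed to 51.8 to 56.9 against 55.4 to 183 FPKM, and Cd52 was the largest part in every mouse. They did not move together. Cd52 was at 24.7, 25.4 and 49.4 FPKM in OEx and 50.98, 47.2 and 170 FPKM in Ctrl mice. Ptprc, below the filter, was at 1.85, 1.55 and 0.427 FPKM in OEx and 0.0742, 0.114 and 0.201 FPKM in Ctrl mice. Coro1a and Laptm5 were higher in OEx replicates 1 and 2 than in any Ctrl mouse, and OEx replicate 3 lay below Ctrl replicate 3. With the deposited scaling 0 of the 3 tested were called by limma or limma-voom and 0 had an unadjusted p under 0.05, whereas 1 was called lower with the replicate block, 1 higher with library totals or without the 20 most abundant genes and 2 higher with Rpl19. Of all 12833 tested rows, 4458 were called higher with library totals, 3512 without the 20 genes and 5812 with Rpl19. The B cell markers, none tested, summed to 0.155 to 0.848 against 0.163 to 0.399 FPKM. Of the 4 tested seminal vesicle genes, 0 were called by limma or limma-voom and 0 had an unadjusted p under 0.05.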
